A study of Mus musculus with 6 samples.

Results

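The p53 regulators and target genes described here are 9 of the 23284 genes in the expression table, found by exact gene symbol from a list drawn up with earlier results of these data known. The regulators are MDM2 and MDM4, and the target genes are CDKN1A, BTG2, SESN1, RRM2B, ZMAT3, TP53INP1 and FDXR. All 9 passed the filter on low values, which asked for an average of 1 FPKM or more across the tumours. FPKM is the number of sequenced fragments per kilobase of transcript and scaled to the mapped fragments of the sample, so levels of different genes are compared per length.

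The tumour suppressor p53 is a transcription factor that acts after DNA damage and other stress. It turns on genes that halt the cell cycle, repair DNA, adjust metabolism or start cell death. MDM2 is the ubiquitin ligase that marks p53 for destruction, and it is itself a p53 target, so the pair form a feedback loop. MDM4 is a relative of MDM2 that binds p53 and blocks its activity.

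The samples were 6 tumours that grew under the skin of athymic nude mice, which lack T cells, from STS26T, a single human malignant peripheral nerve sheath tumour line. Of these, 3 came from mice given TRC105/M1043 anti-ENG mAbs, where TRC105 binds human and M1043 binds mouse endoglin (ENG), a co-receptor of the TGF-beta family. The other 3 came from mice given the IgG isotype control. Both arms received 10 mg/kg into the peritoneum, 2 times a week for 3 weeks. The comparison asks how the tumours' RNA differed after endoglin had been blocked on tumour and host cells. Anti-ENG 1 and 2 carry the same number in their description codes, as do IgG control 2 and 3. The codes within each such pair differ only by a final L or R. The labels do not say that tumours of a shared number came from separate animals, so p-values measure the spread between these tumours only.

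Summed FPKM ran from 446100 to 475146 in anti-ENG tumours and from 410786 to 443148 in IgG control tumours. The total number of fragments is unknown. On the first principal component of the log2 values, which held 44.6% of their variance, anti-ENG 1 (-39.8) and IgG control 1 (31.9) stood apart at opposite ends, and the other 4 tumours lay between -6.19 and 7.51. That pair also correlated least across genes (r = 0.932, against 0.959 to 0.984 for the other pairs), so results are also given without 1 or both of them where they move. Of the 11 markers of nerve sheath, neural crest or mesenchymal tumour cells, 6 were tested, with VIM between 1386 and 2182 FPKM, while SOX10 and S100B did not exceed 0.188 and 0.104 FPKM in any tumour. Endothelial markers summed to 2.85 to 4.81 FPKM in anti-ENG tumours and 2.93 to 5.28 FPKM in IgG control tumours, and the T cell marker CD3E was listed at 0 in all. The 6 fibroblast markers, each with a lower estimate in anti-ENG tumours, summed to 311 to 808 FPKM there and to 686 to 1342 FPKM in IgG control tumours. The part of fibroblast-like RNA in the results below was not tested. Host cells here are mouse cells, while the values are of human genes. The marker levels can hold RNA of the tumour line and mouse reads that align to human genes, which cannot be told apart. They do not measure how many host fibroblasts, endothelial cells or leukocytes a tumour held. Nor can fewer cells and less RNA per cell be told apart in bulk samples.

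No member of the p53 set passed the test between the anti-ENG and IgG control tumours. By limma on log2(FPKM + 1), adjusted by Benjamini-Hochberg over 12586 tested genes, 0 of the 9 genes had an adjusted p under 0.05, where 0% of all tested genes did. Before adjustment, 0 of the 9 had a p under 0.05, where 9.17% of all tested genes did, 5.56% with higher and 3.61% with lower levels in anti-ENG tumours. That split of 700 higher and 454 lower genes became 168 higher and 1088 lower when every tumour was given 1 common sum of FPKM. The smallest adjusted p among the 9 was 0.557, that of RRM2B. Estimates were below 0 in 7 genes, against 48.8% of all tested genes, and above 0 in RRM2B and FDXR, against 51.2%. The median log2 fold change of the 9 was -0.13, beside 0.0065 for all tested genes. That median rested on IgG control 1, the tumour with the highest value in 3 of the 9 genes. Without it the median was 0.0029, with 5 estimates above 0 and 4 below, and without anti-ENG 3 it was -0.23.

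**Figure D1:**
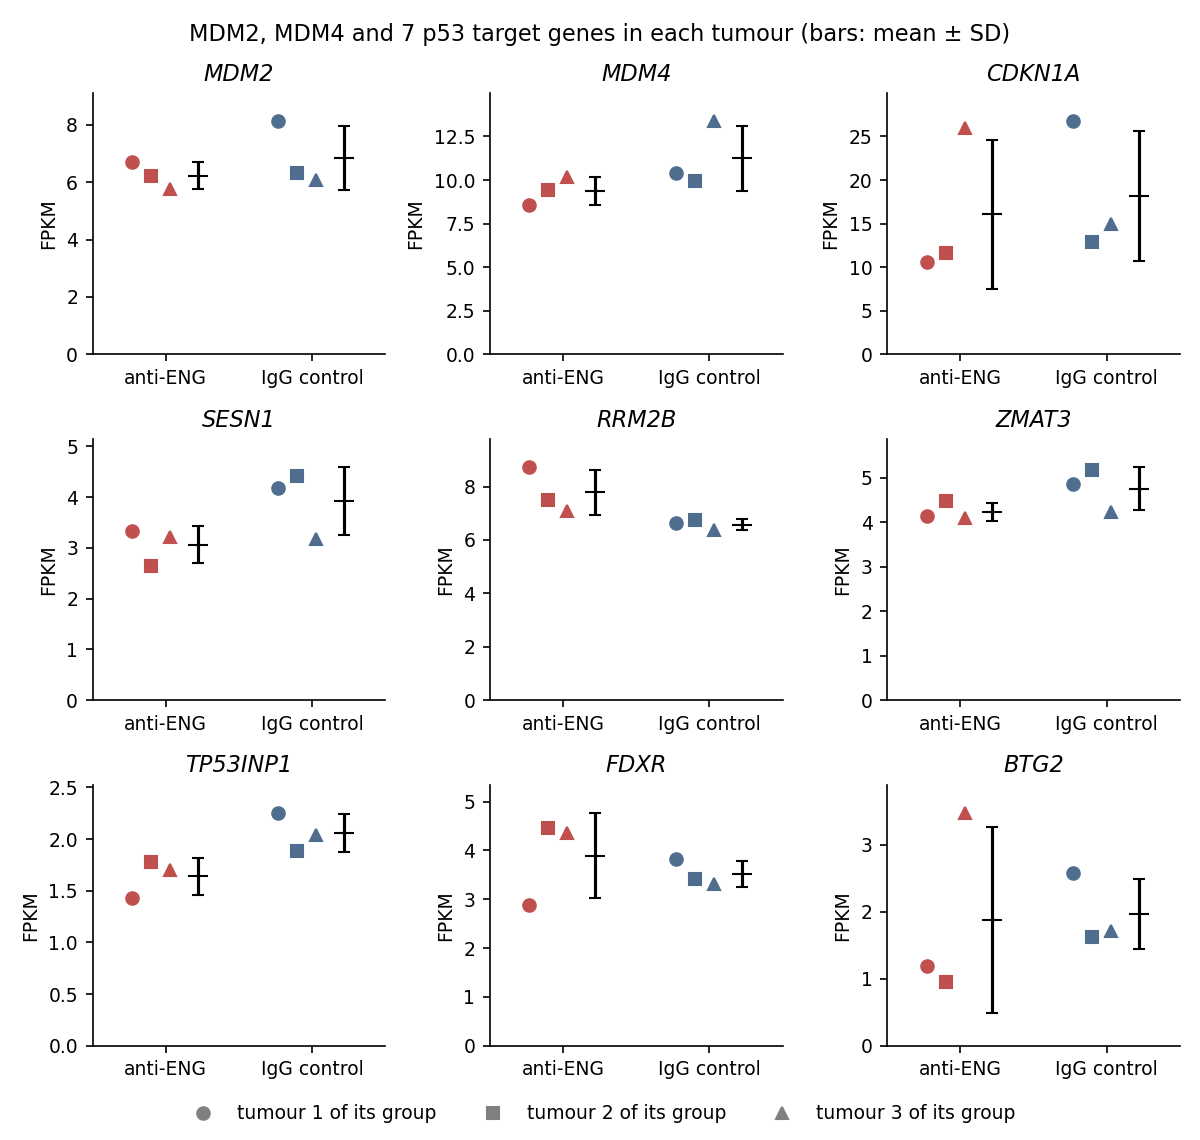
FPKM of each of the 9 genes in each tumour (y axis, from 0), anti-ENG tumours in red and IgG control tumours in blue, with symbols for tumour 1, 2 and 3 of each group and bars for the group mean ± SD. The groups lie apart in RRM2B and TP53INP1, and CDKN1A and BTG2 each have 1 high tumour in either group.

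By level, averaged over the 6 tumours, CDKN1A was the most abundant at 17.1 FPKM, which lay at percentile 61.9 of all tested genes. MDM4 followed at 10.3 FPKM, then RRM2B at 7.18, MDM2 at 6.53, ZMAT3 at 4.49, FDXR at 3.71, SESN1 at 3.49, BTG2 at 1.92 and TP53INP1 at 1.85 FPKM. CDKN1A exceeded MDM4, and MDM2 exceeded ZMAT3, in 6 of 6 tumours. FDXR exceeded SESN1 in 3 of 6 tumours, and BTG2 exceeded TP53INP1 in 2 of 6, so neither neighbour pair differed beyond the spread. The other neighbours kept their order in 5 of 6 tumours.

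MDM2 was at 6.71, 6.23 and 5.74 FPKM in anti-ENG tumours 1, 2 and 3, and at 8.11, 6.33 and 6.07 FPKM in IgG control tumours 1, 2 and 3. The groups overlapped, and IgG control 1 stood above the other 5 tumours. The means were 6.23 ± 0.485 FPKM in anti-ENG tumours and 6.84 ± 1.11 FPKM in IgG control tumours (SD, n = 3 each). MDM2 had an estimated log2 fold change of -0.11 (limma adjusted p = 0.776, SE 0.14), with a 95% interval from -0.43 to 0.21. It was 0.0029 without IgG control 1, -0.061 without anti-ENG 3 and -0.18 without IgG control 3. An exact two-sided permutation test gave p = 0.6, and 3 tumours against 3 cannot give less than 0.1.

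MDM4 was at 8.55, 9.43 and 10.2 FPKM in anti-ENG tumours, and at 10.4, 9.94 and 13.4 FPKM in IgG control tumours. Here IgG control 3 was the highest and the groups overlapped only by anti-ENG 3, which lay just above IgG control 2. For MDM4 the log2 fold change was -0.23 (limma adjusted p = 0.579, SE 0.14), with an interval from -0.56 to 0.096. It was -0.11 without IgG control 3. The ratio of MDM2 to MDM4 ran from 0.565 to 0.785 in anti-ENG tumours and from 0.455 to 0.778 in IgG control tumours, so MDM4 was the more abundant of these inhibitors per length in every tumour.

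CDKN2A, chosen after its values were seen, has an alternative product, ARF, that restrains MDM2. It was at 224, 341 and 188 FPKM in anti-ENG tumours and at 222, 236 and 194 FPKM in IgG control tumours. The table gives 1 value for that gene, so its ARF and p16 transcripts were not separated.

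CDKN1A and BTG2, target genes that slow cell division, varied more between tumours of the same group than between the groups. CDKN1A encodes p21, an inhibitor of cyclin-dependent kinases. It was at 10.7, 11.6 and 25.9 FPKM in anti-ENG tumours 1, 2 and 3, and at 26.7, 12.9 and 14.9 FPKM in IgG control tumours 1, 2 and 3. Anti-ENG 3 and IgG control 1 were thus high and the other 4 tumours lay between 10.7 and 14.9 FPKM. The means were 16.1 ± 8.57 FPKM in anti-ENG tumours and 18.2 ± 7.48 FPKM in IgG control tumours (SD, n = 3 each). That gave CDKN1A a log2 fold change of -0.21 (limma adjusted p = 0.839, SE 0.37), with an interval from -1.08 to 0.66. Its direction turned with a single tumour, to 0.091 without IgG control 1 and 0.012 without anti-ENG 1, and it was -0.59 without anti-ENG 3, -0.41 without IgG control 2 and -0.046 without anti-ENG 2.

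BTG2 encodes an antiproliferative protein that recruits the CCR4-NOT deadenylase complex, and it is also known as an early response gene to growth factors. It was at 1.196, 0.959 and 3.48 FPKM in anti-ENG tumours, and at 2.57, 1.63 and 1.71 FPKM in IgG control tumours. The highest tumours were again anti-ENG 3 and IgG control 1, and the lowest were anti-ENG 1 and 2. BTG2 had a log2 fold change of -0.13 (limma adjusted p = 0.886, SE 0.33), with an interval from -0.90 to 0.63. It was -0.50 without anti-ENG 3 and -0.22 without IgG control 2, and above 0 without IgG control 1 (0.0059), anti-ENG 1 (0.0097) or anti-ENG 2 (0.092). Over the 6 tumours the coefficient of variation was 48.9% for BTG2 and 42.5% for CDKN1A, which placed these genes at percentiles 93.9 and 91.9 of all tested genes. For the other 7 genes it ran from 9.75% for ZMAT3 to 19.3% for SESN1.

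The spread of CDKN1A and BTG2 was not shared by MDM2, which was lowest in anti-ENG 3 and highest in IgG control 1. The ratio of CDKN1A to MDM2 was 1.59, 1.87 and 4.52 in anti-ENG tumours 1, 2 and 3, and 3.29, 2.03 and 2.46 in IgG control tumours 1, 2 and 3. Among all tested genes, 9.88% had their highest values in anti-ENG 3 and IgG control 1, and 10 of 34 tested genes of the list of other p53 targets did. This pair of tumours was picked from the CDKN1A values, so these shares are a description. The 10 genes included GDF15, a secreted stress cytokine, at 2.30, 2.41 and 10.5 FPKM in anti-ENG tumours and 15.2, 5.78 and 6.11 FPKM in IgG control tumours. NINJ1, a membrane protein of cell rupture, was at 10.2, 19.8 and 32.4 FPKM in anti-ENG tumours and at 44.2, 14.1 and 22.7 FPKM in IgG control tumours. The kinase gene PLK3, the death receptor genes FAS and TNFRSF10B and the BCL2 family gene BBC3 were also among the 10.

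Some genes outside the p53 lists were also high in anti-ENG 3 and IgG control 1. The cytokine gene IL6, chosen after its values were seen, was at 20.2, 20.7 and 609 FPKM in anti-ENG tumours 1, 2 and 3, and at 1269, 35.3 and 137 FPKM in IgG control tumours 1, 2 and 3. Growth-induced immediate early genes, the class to which BTG2 also belongs, had anti-ENG 3 and IgG control 1 on top in 9 of 21 tested genes. Over all tested genes that share was 9.88%. The summed level of the immediate early genes was 812, 917 and 1091 FPKM in anti-ENG tumours, and 1640, 811 and 831 FPKM in IgG control tumours. Of this, IER3 reached 339 FPKM in anti-ENG 3 and 721 FPKM in IgG control 1. Without IER3 the sum was 652, 738 and 752 FPKM in anti-ENG tumours, and 920, 617 and 614 FPKM in IgG control tumours. The summed level of 7 leukocyte markers, most of it CD68, was 75.4, 82.7 and 102 FPKM in anti-ENG tumours and 122, 63.7 and 67.5 FPKM in IgG control tumours. CD68 ran from 58.4 to 115 FPKM. PTPRC, CD14 and ITGAM did not exceed 1.13, 0.896 and 0.650 FPKM, and CSF1R and LYZ did not exceed 2.16 and 2.81 FPKM. The sum thus mainly follows CD68 and does not measure leukocyte content. The part of any of these in the levels of CDKN1A and BTG2 was not tested.

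**Figure D2:**
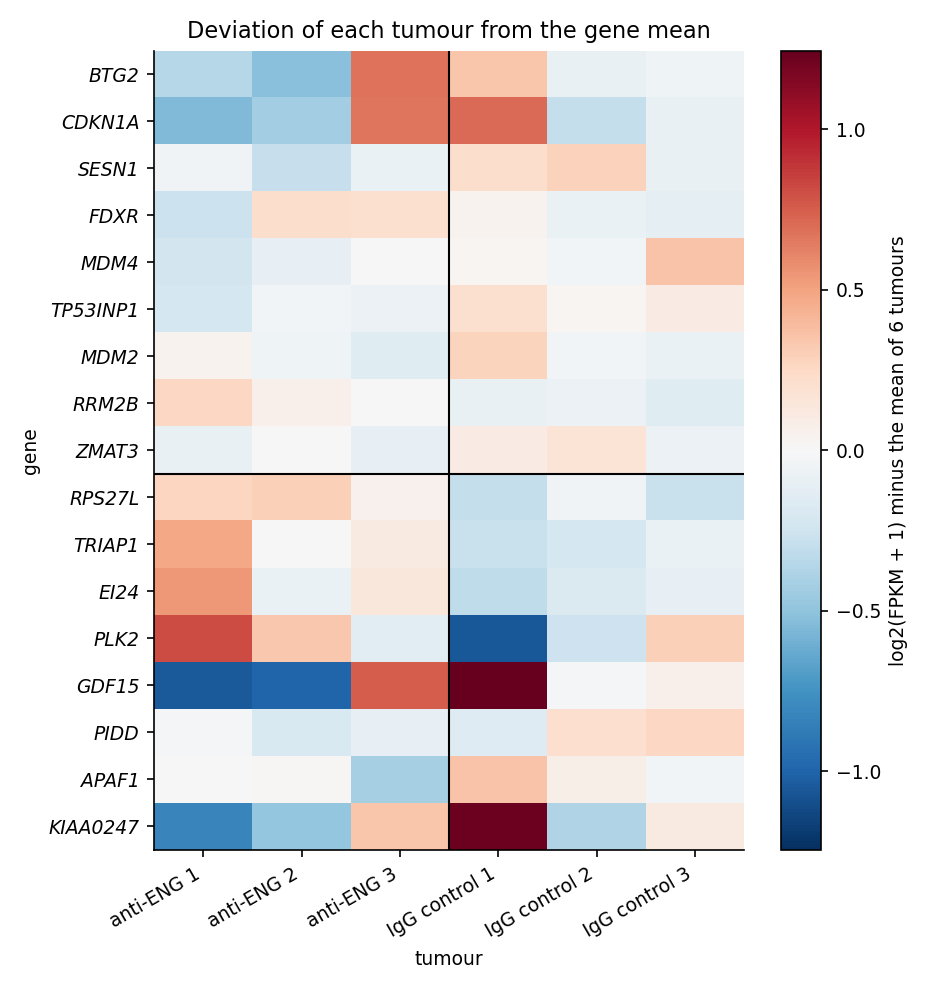
Heat map of log2(FPKM + 1) in each tumour (columns, anti-ENG left and IgG control right) minus the mean of the 6 tumours, for the 9 genes ordered by spread and 8 other p53 targets named by rule (rows). Red is above and blue below the gene mean. CDKN1A, BTG2 and GDF15 are highest in anti-ENG 3 and IgG control 1, while MDM2 is lowest in anti-ENG 3.

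RRM2B and TP53INP1 were the members whose groups lay apart, 2 of 9, where 17.3% of all tested genes did. That was 1 in each direction, and 10.6% of all tested genes lay apart with higher and 6.75% with lower values in anti-ENG tumours. RRM2B encodes the p53-inducible small subunit of ribonucleotide reductase, which supplies deoxynucleotides for repair. It was at 8.73, 7.51 and 7.10 FPKM in anti-ENG tumours, and at 6.62, 6.74 and 6.35 FPKM in IgG control tumours. The lowest anti-ENG tumour was 1.05 times the highest IgG control tumour. Group means were 7.78 ± 0.846 FPKM in anti-ENG tumours and 6.57 ± 0.196 FPKM in IgG control tumours (SD, n = 3 each). On log2(FPKM + 1) RRM2B differed by 0.21 (limma adjusted p = 0.557, SE 0.12), with an interval from -0.065 to 0.48. The exact two-sided permutation p was 0.1, the smallest possible when the 6 tumours are taken as independent. The RRM2B difference was 0.13 without anti-ENG 1, 0.10 with 1 common sum of FPKM and 0.18 with tumours of 1 code number averaged.

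TP53INP1 encodes a stress-induced nuclear protein that promotes p53 activity and autophagy. It was at 1.43, 1.78 and 1.71 FPKM in anti-ENG tumours, and at 2.25, 1.88 and 2.04 FPKM in IgG control tumours. Every anti-ENG tumour lay below every IgG control tumour, with a gap of 1.06 times between the nearest. Its log2 fold change was -0.21 (limma adjusted p = 0.620, SE 0.15), with an interval from -0.57 to 0.15 and an exact two-sided permutation p of 0.1. At this level the added pseudocount of 1 FPKM shrinks the estimate, and with a pseudocount of 0.1 it was -0.31. It was -0.12 with quantile normalization and -0.11 with anti-ENG 1 and IgG control 1 both left out. With tumours of 1 code number averaged it was -0.23.

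SESN1, ZMAT3 and FDXR act in metabolism and RNA control. SESN1, a sestrin that restrains growth signalling through mTORC1, was at 3.33, 2.65 and 3.21 FPKM in anti-ENG tumours, and at 4.19, 4.42 and 3.17 FPKM in IgG control tumours. IgG control 3 fell among the anti-ENG values, and the other IgG control tumours lay above them. SESN1 had the lowest log2 fold change of the 9, -0.27 (limma adjusted p = 0.569, SE 0.16), with an interval from -0.64 to 0.096. With each tumour rescaled to the same sum of FPKM SESN1 was the 1 member under the threshold before adjustment, with a log2 fold change of -0.37 (limma adjusted p = 0.497). That rescaling moved the median of all tested genes to -0.10.

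ZMAT3, a zinc finger protein that binds RNA, was the steadiest of the 9 genes at 4.14, 4.47 and 4.09 FPKM in anti-ENG tumours and 4.86, 5.17 and 4.22 FPKM in IgG control tumours. Its groups overlapped, with a log2 fold change of -0.13 (limma adjusted p = 0.700, SE 0.13) and an interval from -0.43 to 0.16. ZMAT3 was -0.081 without IgG control 2, -0.20 without IgG control 3, -0.23 with 1 common sum of FPKM and -0.072 with quantile normalization. FDXR, the mitochondrial ferredoxin reductase, was at 2.88, 4.45 and 4.35 FPKM in anti-ENG tumours and at 3.83, 3.41 and 3.32 FPKM in IgG control tumours. Anti-ENG 1 was the lowest tumour and the other anti-ENG tumours were the highest. FDXR had a log2 fold change of 0.10 (limma adjusted p = 0.830, SE 0.17), with an interval from -0.30 to 0.50. It was 0.26 without anti-ENG 1, 0.014 without anti-ENG 2 and 0.027 without anti-ENG 3. Given 1 common sum of FPKM in every tumour, FDXR was 0.0060.

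**Figure D3:**
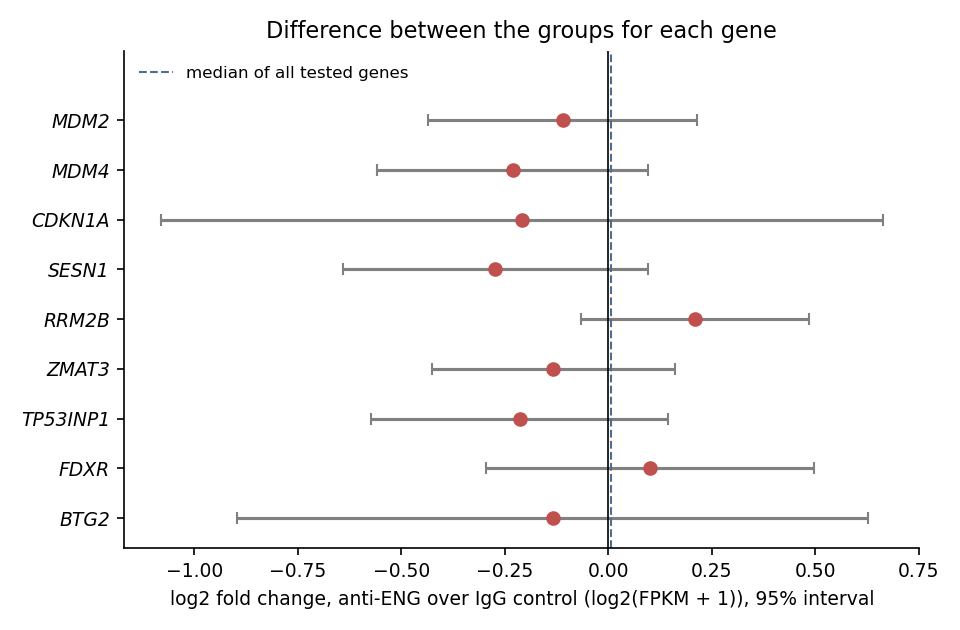
Log2 fold change of each of the 9 genes, anti-ENG over IgG control, on log2(FPKM + 1) (x axis; points) with 95% intervals from limma (bars). The dashed line is the median of all tested genes at 0.0065. All 9 intervals include 0, and those of CDKN1A and BTG2 are the widest.

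Of 42 other p53 target genes, all were in the table and 34 were tested, with 18 estimates above 0 and 16 below. Their median log2 fold change was 0.043 (-0.0039 without IgG control 3), beside 0.0065 for all tested genes, and 0 passed at an adjusted p under 0.05. Before adjustment 2 had a p under 0.05, both with higher levels in anti-ENG tumours, where 5.56% of all tested genes did. Counted in either direction, the number was 6 without anti-ENG 3, with GDF15 as a lower gene among them, and 4 without anti-ENG 2. It was 3 without IgG control 1 or IgG control 3, and 1 without anti-ENG 1 or IgG control 2. With 1 common sum of FPKM it was 0. Over all tested genes, 1154 (9.17%) had such a p in either direction in the fit as reported. That number was 1466 without anti-ENG 3, 1564 without anti-ENG 2, 728 without IgG control 1 and 820 without IgG control 3. It was 689 without anti-ENG 1, 661 without IgG control 2 and 1256 with 1 common sum of FPKM. These fits tested between 12553 and 12602 genes. RPS27L, a ribosomal protein paralogue, was at 43.1, 44.2 and 37.2 FPKM in anti-ENG tumours and at 28.9, 34.7 and 29.4 FPKM in IgG control tumours (log2 fold change 0.41, limma adjusted p = 0.529). TRIAP1, a mitochondrial lipid transfer protein that restrains apoptosis, had means of 26.7 ± 5.07 FPKM in anti-ENG tumours and 20.0 ± 1.45 FPKM in IgG control tumours (SD, n = 3 each, log2 fold change 0.39). The groups of both genes lay apart, as they did for EI24 (0.39). Without anti-ENG 1, TRIAP1 was at 0.24 and EI24 at 0.22, and with IgG control 1 left out as well they were at 0.20 and 0.16. RPS27L resembles RPS27 closely, and reads may have been shared between them. PLK2, a stress kinase gene, had a log2 fold change of 0.68, and its groups overlapped. It was 0.32 without IgG control 1, 0.44 without anti-ENG 1 and 0.082 without both.

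Among the other targets with lower estimates, GDF15 had a log2 fold change of -0.86, PIDD (PIDD1) -0.21, APAF1, the scaffold of the apoptosome, -0.26 and KIAA0247 (SUSD6) -0.64. None of these 4 genes had groups apart, and their limma adjusted p ran from 0.586 to 0.610. Of the 34 tested targets, 4 had groups apart with higher and 1 with lower values in anti-ENG tumours. Among all tested genes these shares were 10.6% and 6.75%. GDF15 was -1.46 without anti-ENG 3 (limma adjusted p = 0.426), -0.55 without anti-ENG 1, -0.46 without IgG control 1 and -0.15 without both of these. KIAA0247 was -0.98 without IgG control 2, -0.97 without anti-ENG 3, -0.39 without anti-ENG 1 and -0.19 without IgG control 1, and turned to 0.064 without both anti-ENG 1 and IgG control 1. APAF1 was -0.12 without anti-ENG 3 and -0.15 without IgG control 1, and PIDD was -0.34 without IgG control 1 and -0.13 without IgG control 3. The cell death gene BAX was among the more abundant targets, at 66.9 ± 3.53 FPKM in anti-ENG tumours and 63.3 ± 7.35 FPKM in IgG control tumours, and the growth arrest gene GADD45A was at 54.3 ± 3.51 FPKM in anti-ENG tumours and 47.6 ± 4.12 FPKM in IgG control tumours (SD, n = 3 each).

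Of 29 genes for other regulators and relatives of p53, 27 were tested, with 14 estimates above 0, 13 below, 0 passing and a median of 0.11. That median was 0.025 without anti-ENG 2, 0.040 without IgG control 3, 0.056 without anti-ENG 1 and 0.062 without IgG control 1. Of the 27 genes, 6 had groups apart with higher and 2 with lower values in anti-ENG tumours. Among all tested genes these shares were 10.6% and 6.75%. Scaling turned the medians of these lists near 0, to -0.058 for the other targets and -0.0096 for the other regulators with each tumour rescaled to the same sum of FPKM. Among the proteins that bind MDM2 and hold it back, RPL23 was at 969, 672 and 923 FPKM in anti-ENG tumours and at 522, 617 and 659 FPKM in IgG control tumours (log2 fold change 0.50, limma adjusted p = 0.529). NPM1, the nucleolar protein that binds ARF, had a log2 fold change of 0.53. The groups of both genes lay apart. NPM1 was 0.29 without anti-ENG 1, 0.18 with IgG control 1 left out as well and 0.22 with quantile normalization, and RPL23 was 0.22 with cyclic loess. Reads of RPL23 and NPM1 can be split with near-identical pseudogene copies, so their levels are uncertain. The p53 acetyltransferase genes CREBBP and EP300 had log2 fold changes of -0.34 and -0.20 (limma adjusted p = 0.529 and 0.548), and the groups lay apart in EP300. With anti-ENG 1 and IgG control 1 left out CREBBP was -0.16, and with 1 common sum of FPKM EP300 was -0.31.

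CDKN1A acts on the cell cycle partly through the DREAM complex, which represses genes of DNA replication and mitosis. Of 20 such genes, all tested, 20 had estimates above 0, against 51.2% of all tested genes. Of the 20, 8 had an unadjusted p under 0.05 and 8 had groups apart, where 5.56% and 10.6% of all tested genes did so with higher values in anti-ENG tumours. The median log2 fold change was 0.35, and 0 passed at an adjusted p under 0.05. The count with an unadjusted p under 0.05 was 3 without IgG control 1, 5 without anti-ENG 1 or IgG control 3, and 12 without anti-ENG 3. It was 2 without both anti-ENG 1 and IgG control 1, and 2 with 1 common sum of FPKM. All 20 estimates were above 0 in each of these fits. Over all tested genes, 700 had such a p with higher values in the fit as reported. That number was 374 without IgG control 1, 408 without anti-ENG 1, 420 without IgG control 3 and 839 without anti-ENG 3. It was 404 without both anti-ENG 1 and IgG control 1, and 168 with 1 common sum of FPKM. These fits tested between 12555 and 12602 genes. CCNB1 and AURKA, of mitotic entry and spindle assembly, had log2 fold changes of 0.58 and 0.43 (limma adjusted p = 0.529 each). The summed level of the list was 844, 687 and 661 FPKM in anti-ENG tumours 1, 2 and 3, and 532, 585 and 579 FPKM in IgG control tumours 1, 2 and 3. Anti-ENG 1 and 2, with the lowest CDKN1A, had the highest sums, and IgG control 1, with the highest CDKN1A, had the lowest. The extremes of this sum, anti-ENG 1 and IgG control 1, were thus the tumours that stood apart over all genes, and the median was 0.24 without anti-ENG 1 and 0.21 without both. Anti-ENG 3, with CDKN1A nearly as high, had a sum above every IgG control tumour. Of these 20 genes, 0 had their highest values in the anti-ENG 3 and IgG control 1 pair, where 9.88% of all tested genes did. That pair was picked from the CDKN1A values, so this count is a description. The part of CDKN1A in the levels of these genes was not tested.

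Immediate early genes had 21 of 25 tested, 8 with estimates above 0 and 13 below, and a median of -0.18 with 0 passing. That median turned to 0.072 without IgG control 1 and to 0.0077 without anti-ENG 1. ZFP36, an mRNA decay factor, had a log2 fold change of -0.63 and KLF2 0.64, and the groups of both lay apart (limma adjusted p = 0.529 each). Of the 21 genes, that was 1 with higher and 1 with lower values in anti-ENG tumours. Among all tested genes these shares were 10.6% and 6.75%. FOS was at -0.69 and FOSL1 at 0.45, with groups that overlapped. FOS was -0.37 without IgG control 1 and FOSL1 0.29 without IgG control 2, and ZFP36 was -0.24 with anti-ENG 1 and IgG control 1 left out. Neighbours of MDM2 on its chromosome arm, which can be gained with it in sarcomas, had 13 of 14 tested, a median of 0.029, which turned to -0.071 without IgG control 1 and -0.039 without anti-ENG 1, and 0 passing. The neighbour CDK4, a kinase gene of the same arm, had between 66.2 and 88.6 FPKM, and MDM2 lay at percentile 31.9 of all tested genes by mean level. Gain of this arm was not tested, and RNA levels do not measure it. Of the 13 tested neighbours, 2 had groups apart with higher and 1 with lower values in anti-ENG tumours, against the same shares of all tested genes. The 2 higher were YEATS4 and CCT2, with log2 fold changes of 0.61 and 0.32. LYZ at -0.23 and HMGA2 at -0.18 had groups that overlapped. Without anti-ENG 1, CCT2 was 0.17 and HMGA2 turned to 0.019. LYZ was -0.082 without anti-ENG 2, -0.11 without IgG control 1 and -0.35 without IgG control 2.

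**Figure D4:**
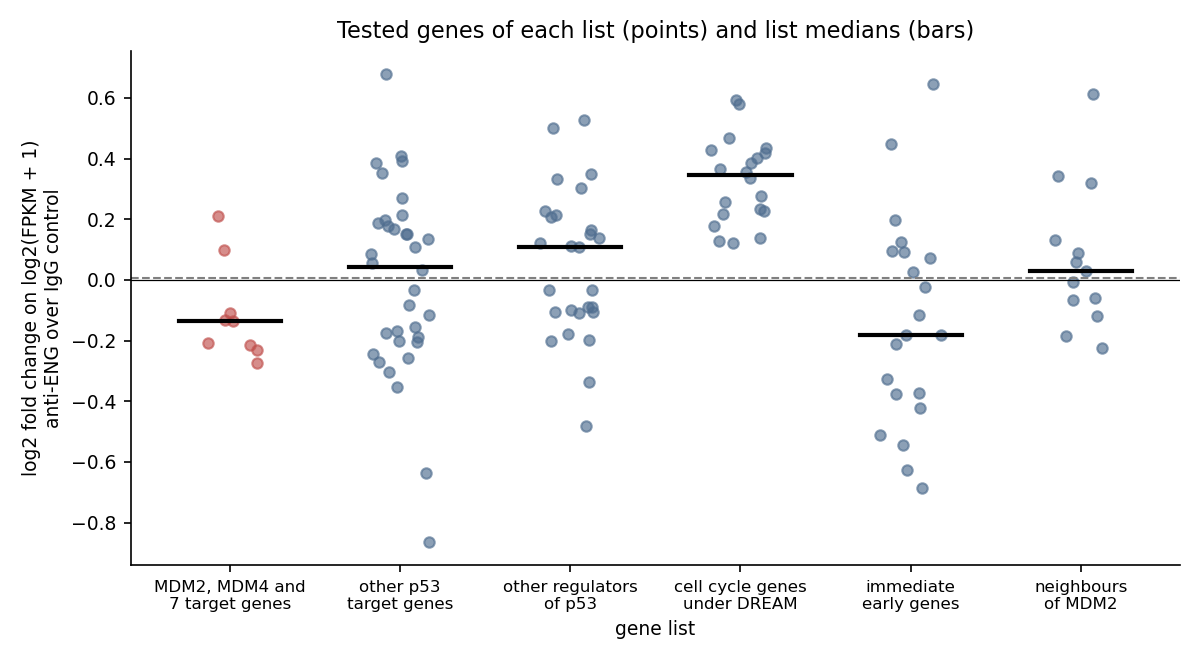
Log2 fold change, anti-ENG over IgG control, on log2(FPKM + 1) (y axis) of every tested gene (points) in the 9 genes, in red, and in 5 further lists, in blue, with list medians as black bars. The dashed line is the median of all tested genes at 0.0065. The medians are -0.13 for the 9 genes, 0.043 for the other targets, 0.11 for the other regulators, 0.35 for the cell cycle genes, -0.18 for the immediate early genes and 0.029 for the neighbours of MDM2. The medians of the other targets, the regulators and the neighbours turned to -0.058, -0.0096 and -0.078 when every tumour was given 1 common sum of FPKM.

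The genes whose pattern over the 6 tumours was most like that of CDKN1A were PIM2, a survival kinase gene (Pearson r = 0.997), DCBLD1 (0.995), ANKLE1 (0.993) and ATG2A (0.992). Without anti-ENG 3 and IgG control 1, the tumours farthest from the median, these values were 0.993, 0.982, 0.986 and 0.979. PIM2 was at 6.11, 6.78 and 16.9 FPKM in anti-ENG tumours and at 17.5, 7.44 and 8.28 FPKM in IgG control tumours. For MDM2 they were TTC39C (0.986), KCNJ14 (0.980), SGK223 (0.977) and NFATC3 (0.968), and without the same tumours 0.990, 0.738, 0.857 and 0.834. For BTG2 they were VHL (0.986), NEDD9 (0.984), ADPRH (0.984) and CDR2L (0.984), and without anti-ENG 2 and 3 0.986, 0.972, 0.971 and 0.994. These are the highest of all named tested genes over only 6 tumours that share 1 scaling, and no test was made.

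ENG, the target of the antibodies, was at 15.5, 29.5 and 26.7 FPKM in anti-ENG tumours and at 41.0, 23.9 and 22.1 FPKM in IgG control tumours, so its human RNA overlapped between the groups. The antibodies bind the protein, and its RNA does not measure their effect.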

How the data were processed

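The authors deposited 1 table of FPKM values per gene symbol, with 6 columns that were matched to tumours by the description codes. Groups came from the sample titles. Per the labels' protocols, RNA with a poly(A) tail was sequenced. The protocols mention more than 1 library kit and sequencer and do not assign them to tumours, so kit and group cannot be told apart. Per the submitters' processing notes, reads were handled on GRCh37 (hg19) with Cufflinks 2.2.1 and Cuffnorm, TopHat2 2.0.10 and Bowtie 1.0.0, beside SAMtools 0.1.1.9 and FastQC 0.10.1. Neither the handling of mouse host reads nor the use of strand is stated in these sources. Mouse reads that align to the human genome can enter these values.

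The deposited FPKM values were turned to log2(FPKM + 1) and fitted by group alone with limma 3.58.1 (R 4.3.3, eBayes with trend). The fit covered 12586 genes that averaged 1 FPKM or more, with two-sided p-values adjusted by Benjamini-Hochberg and a threshold of 0.05. The pseudocount of 1 understates changes of low genes. FPKM values are not counts, the depth is unknown, and no count test was run. The step was tested on simulated data. Exact permutation tests compared mean log2 values over the 6 tumours. No 2 tumours held identical values (0 pairs).

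The 9 members and the gene lists were chosen with earlier results of these data known. Named genes are the members, ENG, the list genes with the lowest p before adjustment (up to 4 in each direction for other p53 targets, up to 2 for the rest) and the 4 genes most correlated with MDM2, CDKN1A and BTG2. Others were chosen after their values were seen: CDKN2A, IL6, NINJ1, PLK3, FAS, TNFRSF10B, BBC3, BAX, GADD45A, IER3, CDK4 and the cell type markers given with values. PIDD1, SUSD6, TIGAR, CDIP1 and others were looked up under older symbols. A gene of the regulator list is not reported here, and the list was counted without it. Alternatives covered pseudocount, filter, scaling, variance model, sample weights, the replicate block, averaging tumours of 1 code number and leaving out tumours.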

Additional observations from a re-analysis of the deposited data

How the results depend on the processing

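No gene of the 9, and no gene of the table, passed an adjusted p of 0.05 under any of the 13 alternatives or without any 1 of the 6 tumours. Genes with an unadjusted p under 0.05 numbered 1154, and between 661 and 1564 without 1 tumour. They numbered 737 when both IgG control 1 and anti-ENG 1 were left out. Among genes with such a p, 60.7% were higher in the fit as reported. The share was 13.4% of the 1256 such genes with the same sum of FPKM, 46.4% of 1068 with upper quartile rescaling and 47.6% of 951 with cyclic loess normalization, so the split rests on the scaling. The same sum of FPKM gave 1 of the 9 genes, SESN1, an unadjusted p under 0.05. The median log2 fold change of the 9 genes was -0.22 with a pseudocount of 0.1, -0.078 with 5, -0.23 with the same sum, -0.072 with quantile normalization, -0.074 with array weights and -0.045 when both IgG control 1 and anti-ENG 1 were left out. Without 1 tumour it ran from -0.23 to 0.0029. A minimum of 5 FPKM left 4 of the 9 genes in the test.

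Direction turned in at least 1 alternative for MDM2, CDKN1A, BTG2, ENG, CDKN2A, HMGA2 and KIAA0247. Without 1 tumour, the log2 fold change ran from -0.18 to 0.0029 for MDM2, from -0.59 to 0.091 for CDKN1A, from -0.50 to 0.092 for BTG2, from -0.44 to 0.0070 for ENG, from -0.079 to 0.35 for CDKN2A, from -0.31 to 0.019 for HMGA2 and from -0.98 to -0.19 for KIAA0247. Array weights gave 0.092 for CDKN1A and 0.042 for BTG2, and cyclic loess gave -0.039 for CDKN2A. With IgG control 1 and anti-ENG 1 both left out it was 0.31 for CDKN1A, 0.15 for BTG2, 0.28 for ENG and 0.064 for KIAA0247. MDM4, SESN1, RRM2B, ZMAT3, TP53INP1 and FDXR kept their direction in every alternative run. The medians of the gene lists were put through the same alternatives after seeing the data. That of the other p53 targets was -0.0012 at a minimum of 5 FPKM, -0.058 with the same sum, -0.0030 with cyclic loess and -0.0062 with tumours of 1 code number averaged, and without 1 tumour it ran from -0.0039 to 0.086. For the other regulators it was -0.0096 with the same sum and -0.030 with cyclic loess, and ran from 0.025 to 0.14 without 1 tumour. For immediate early genes it was 0.0096 with array weights and 0.091 without the pair of IgG control 1 and anti-ENG 1, and ran from -0.30 to 0.072 without 1 tumour. For the neighbours of MDM2 it was -0.078 with the same sum, -0.016 with quantile normalization, -0.046 with cyclic loess, -0.069 with array weights and -0.087 without that pair, and ran from -0.071 to 0.084 without 1 tumour. The cell cycle median stayed above 0 in every alternative run, from 0.21 to 0.36. The cause of these turns was not tested.

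Replicate numbers of the titles did not pair the tumours: deviations of same-numbered tumours correlated at -0.33, 0.19 and 0.037 across genes. With the replicate block, 842 genes had an unadjusted p under 0.05, 0 passed the adjusted threshold, and the median of the 9 genes was -0.13. Since the depth is unknown, the counting error of low genes such as BTG2 and TP53INP1 cannot be given.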
